A study of Mus musculus with 17 samples.

Results

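Unamplified mRNA from adult mouse cortex was measured on a single array, and 18193 genes were ranked on it by signal. The array was 1 of 17 in a study of mRNA localization in neuronal dendrites, in which it served as the undiluted reference for arrays made from picogram amounts of the same mRNA after linear amplification. The tissue was cortex of untreated adult females of the strain C57/BL6, frozen at once, and the labels give no area, layer or number of animals. Its mRNA was isolated with TRIzol and the MicroFastTrack 2.0 kit, and 5 µg was hybridized, without an amplification round, to an Affymetrix genome-wide mouse array, on which several short probes make up a probe set for a transcript. The labels' molecule field reads total RNA and their labelling protocol, shared by all samples, speaks of aRNA, the product of amplification, whereas the title of the sample and the methods give unamplified mRNA, which is the reading used here. There was no replicate, so no value below carries an error between animals and no comparison between gene lists was tested.

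The cerebral cortex holds glutamatergic projection neurons arranged in layers, GABAergic interneurons that inhibit them, and glia: astrocytes, which clear glutamate and potassium, oligodendrocytes, which make myelin, and microglia, the resident macrophages, together with the cells of blood vessels and membranes. Neurons release transmitter by calcium-triggered fusion of synaptic vesicles, and receptors gathered on a postsynaptic scaffold receive it. Ion pumping after each signal makes cortical tissue a large consumer of glucose and oxygen. In a tissue sample, a low level of the mRNAs of a cell type cannot be told apart as few cells of that type or little RNA in each.

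Each gene was represented by the median of its probe sets that carry that gene's symbol alone, in log2 signal, and its place is given as a percentile among the 18193 genes, from 0 for the dimmest to 100 for the brightest. In the text a number in parentheses after a gene is this percentile. Of all genes, 910 (5.00%) lay in the top 5%, 4548 (25%) in the top 25% and 9113 (50.1%) below the median, and the counts for each list below are to be read against these shares. The gene values ranged from 1.77 to 14.93 log2 with a median of 5.69, and the top 5% began at 9.12. The 45037 probe sets took only 3771 distinct values, and 11737 genes shared their value with another gene. Such genes have the same percentile, and their order is not resolved. Probe sets differ in how strongly they bind their target, so a percentile mixes the abundance of a transcript with the response of its probes, and no ratio between genes was taken.

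The spread between probe sets of the same gene was the only error that the array itself holds. Among the 9010 genes with 2 or more probe sets, the highest and the lowest differed by a median of 2.30 log2, with quartiles of 1.16 and 3.89, and by over 2 log2 in 56.1% of them. In percentiles of all probe sets the median difference was 38.9 points. The position of a single gene is therefore loose. Probe sets for the opposite ends of a transcript also differed, the 3′ end exceeding the 5′ end by 0.37 log2 for pyruvate carboxylase, 1.17 for β-actin, 2.20 for Gapdh and 5.76 for the transferrin receptor. The 27 probe sets for bacterial polyA control transcripts had a median percentile of 17.3 among all probe sets, with the highest at 91.4, and the 18 for hybridization controls had one of 97.3. Whether the polyA controls were added to this sample is not given in the sources used here.

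The 30 brightest genes were a mixed group, and only a few of them are known for a role in cortex. In order of level they were Sult2b1 (14.93 log2), a sulfotransferase of cholesterol, Smc1b (14.71 log2), a cohesin subunit of meiosis, Grid2ip, Acot3, Oxt (14.37 log2), the oxytocin precursor, Tead3, Jagn1, Hdgfl2, Sil1, Med18, 2310040G24Rik, Agtr1a, Pomt1, Uspl1, Calb2 (13.19 log2), the calcium-binding protein calretinin, Rnase1, Gdpd5, Rnasek, Cyb561d2, Ppm1k, H2-T18, Cav1, Uqcrh (12.80 log2), a subunit of respiratory complex III, Nrgn (12.80 log2), the calmodulin-binding protein neurogranin of excitatory neurons, Slc45a1, Ptprn, Inhbc, Vsig10l, Telo2 and Tfeb. Of these, 25 had 1 probe set, against 50.5% of all genes, and in the top 5% the share with 1 probe set was 70.1%. For Uqcrh both probe sets were bright, at 12.61 and 12.99 log2. For Hdgfl2 they lay at 7.32, 13.52 and 14.54 log2, the first far below the others. Genes with 1 probe set reached the top 5% in 6.95% of cases and those with 2 in 3.19%.

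Neuronal genes stood high on the array, and the pan-neuronal and glutamatergic lists headed the cell types. Of the 19 pan-neuronal genes, 7 were in the top 5%, 15 in the top 25% and 3 below the median, and their median percentile was 87.7. The brightest were Eno2 (99.66), the neuronal enolase, and Vsnl1 (98.7), a calcium sensor of neurons. Snap25 (98.2), a SNARE protein of the presynaptic membrane, had probe sets at 10.21 and 11.29 log2, and Syt1 (97.1), the calcium sensor of fast release, had them at 4.15, 9.81, 10.33 and 11.25. Syn1 (97.5) and Syp (95.6), both proteins of synaptic vesicles, and the light neurofilament Nefl (96.8) followed. Stmn2 (82.3), Map2 (87.7) and Rbfox3 (82.7), the antigen NeuN, were also in the top 25%. Tubb3 (7.45), a neuronal tubulin, and Gap43 (28.1), a protein of growing axons, were the lowest of the list, each measured by 1 probe set, and the heavy neurofilament Nefh (44.7) was the other member below the median.

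The markers of glutamatergic neurons had a median percentile of 85.4, with 9 of 13 in the top 25% and 1 below the median. Nrgn (99.87) was the highest, followed by Camk2a (93.99), the alpha subunit of calmodulin kinase II, for which the 6 probe sets lay at 6.43, 6.60, 8.30, 9.33, 10.35 and 10.90 log2. The vesicular glutamate transporter Slc17a7 had 1 probe set at 7.43 log2 and a percentile of 85.2, and the transcription factors Tbr1 (92.5) and Neurod2 (85.4) were close to it. The lowest members were Itpka (37.2), an inositol trisphosphate kinase, and Emx1 (64.9), a homeobox factor of the dorsal telencephalon. Slc17a6 (34.2), the transporter used mainly by thalamic and other subcortical neurons, was below the median.

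Interneuron markers were more divided, with a median of 71.4. Of 21 genes, 10 were in the top 25% and 7 below the median. The enzymes that make GABA were bright, Gad1 (96.8) with probe sets at 9.75 and 10.15 log2 and Gad2 (87.1) with them at 5.47 and 9.78. Among the genes that mark interneuron classes, Calb2 (99.92), Vip (86.05), Crh (85.01) and Pvalb (84.8) were in the top 25% whereas the peptides Sst (43.9), Cort (62.6) and Npy (41.9) were not. Lhx6 (83.1), a transcription factor of interneurons from the medial ganglionic eminence, ranked above Sox6 (36.2), another one. The vesicular GABA transporter Slc32a1 (44.9) was also below the median, and Erbb4 (5.55), a neuregulin receptor, and Nxph1 (8.11), a neurexin ligand, were the lowest.

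Among the layer markers, the upper layer list had a median of 74.8, the layer 6 list one of 67.6 and the layer 5 list one of 53.4. The order of layers 6 and 5 depended on the setting. With the highest probe set of each gene their medians were 57.8 and 61.6, and with the mean probe set 52.06 and 52.85. Each list held members at both ends. Of the upper layer genes, Cux2 (92.5), Pou3f3 (86.9), Pou3f2 (82.8) and Rorb (81.3) were high and Lhx2 (3.84) and Rspo1 (10.99) low, and the 9 probe sets of Cux1 (14.7) lay at 2.91, 3.24, 3.81, 4.25, 4.32, 4.62, 6.61, 6.86 and 8.14 log2, on both sides of the array's median. Of the layer 5 genes, Pcp4 (96.95) and Bcl11b (87.6), the factor Ctip2, were high, while Ldb2 (37.6) and Fezf2 (4.31), a factor that specifies subcerebral projection neurons, were the lowest. Of the layer 6 genes, Nr4a2 (88.3) and Tle4 (81.1) were the highest and Foxp2 (25.9) and Syt6 (10.2) the lowest.

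Astrocyte markers had a median of 76.7, the highest among the glia, with 3 of 22 genes in the top 5%, 12 in the top 25% and 6 below the median. Without probe sets ending in _x_at or _s_at it was 75.3, below the microglial 76.4. With the mean probe set the medians were close, at 74.9 for astrocytes and 74.6 for microglia. Under the other settings tried the astrocyte median stayed above the microglial one. The brightest were Ndrg2 (98.4) and Slc1a2 (97.1), the main glutamate transporter, with probe sets at 5.14, 6.85, 10.08, 10.49 and 10.54 log2. Sparcl1 (95.1), a secreted protein that promotes synapse formation, Glul (93.5), the glutamine synthetase, Gja1 (88.96), connexin 43, and Apoe (85.4), the carrier of lipids, were in the top 25%. The genes most used to label the cell type were not among them. Gfap (36.4), the intermediate filament, had probe sets at 2.87, 5.23 and 5.27 log2, the water channel Aqp4 (40.7) had them at 5.14, 5.38 and 8.93, and Aldh1l1 (18.2) and Fgfr3 (18.8) were the lowest of the list.

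Oligodendrocyte markers had a median of 65.5, with 6 of 20 in the top 25% and 5 below the median. Cldn11 (95.9), the claudin of myelin, was the highest. Mbp (93.1), the myelin basic protein, had 8 probe sets at 5.37, 7.04, 8.21, 8.45, 8.65, 9.59, 10.43 and 10.60 log2, which reached from below the median of the array into its top 5%. Mag (80.4) and Car2 (78.2) were in the top 25%, whereas Mog (10.99) and Gal3st1 (10.99), a sulfotransferase of myelin lipids, were lowest at the same percentile. The precursors of these cells had a lower median, 41.3 over 7 genes, with C1ql1 (82.5) the highest, Sox10 (64.04), shared with the mature cells, next, and the receptors Pdgfra (19.7) and Gpr17 (16.7) the lowest.

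Microglial genes had a median of 72.4, with 10 of 20 in the top 25% and 7 below the median. Cst3 (92.6), cystatin C, which astrocytes and neurons make as well, and Cx3cr1 (91.97), the fractalkine receptor, were the highest, and Tyrobp (88.1), the adaptor of Trem2 (76.3), followed. The C1q chains, which assemble into 1 complement protein, were far apart, with C1qc (79.9) in the top 25% and C1qa (37.2) and C1qb (18.001) below the median. Aif1 (5.55), the protein Iba1, and Gpr34 (1.84) were the lowest, each with 1 probe set, and Tmem119 (29.5) was also low.

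Vascular genes were in the middle of the array, with a median of 65.3 for endothelium and 49.97 for pericytes and smooth muscle. Kdr (96.9), a receptor for VEGF, and Slc2a1 (80.05), the glucose transporter of the blood-brain barrier, led the endothelial list, and Abcb1a (6.96), an efflux pump of that barrier, and Emcn (4.07) closed it. Rgs5 (94.96) and Anpep (90.2) led the pericyte list, and Higd1b (22.7) and Acta2 (17.1), smooth muscle actin, closed it. The genes of meninges and fibroblasts had a median of 43.4, with Ptgds (94.4), prostaglandin D synthase, and Col3a1 (90.4) at the top and Col1a2 (23.2) and Lum (20.5) at the bottom. Of the 5 genes of red blood cells, Epb42 (88.3) was the highest, the globin Hba-a1 lay at 72.5 and Slc4a1 (12.2) was the lowest.

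The 3 lowest lists among the cell types were those of the choroid plexus, of dividing cells and of blood leukocytes, of which adult cortex holds few. Genes of the choroid plexus and ependyma had a median of 33.2. Ttr (81.2), transthyretin, the main product of the choroid plexus, was among its highest with Steap1 (84.9), and its probe sets lay at 6.10, 6.75, 7.44 and 10.11 log2, while Kcne2 (7.45) and Otx2 (3.49) were the lowest. Genes of proliferating and immature cells had a median of 40.02, in which the neurogenic factor Sox11 (88.97) and Igf2bp1 (76.4) stood above and the mitotic genes Mki67 (13.9), Top2a (13.5), Cdk1 (10.7), Aurkb (11.1) and Birc5 (1.26) were all below percentile 15 together with Hmga2 (8.995). Genes of lymphocytes and granulocytes had a median of 27.1, with Ngp (98.3) and Cd8a (93.7) high and the B and T cell receptor subunits Cd79a (1.68) and Cd3g (2.68) lowest, and a median of 54.1 without probe sets below the lower quartile of the array.

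**Figure D1:**
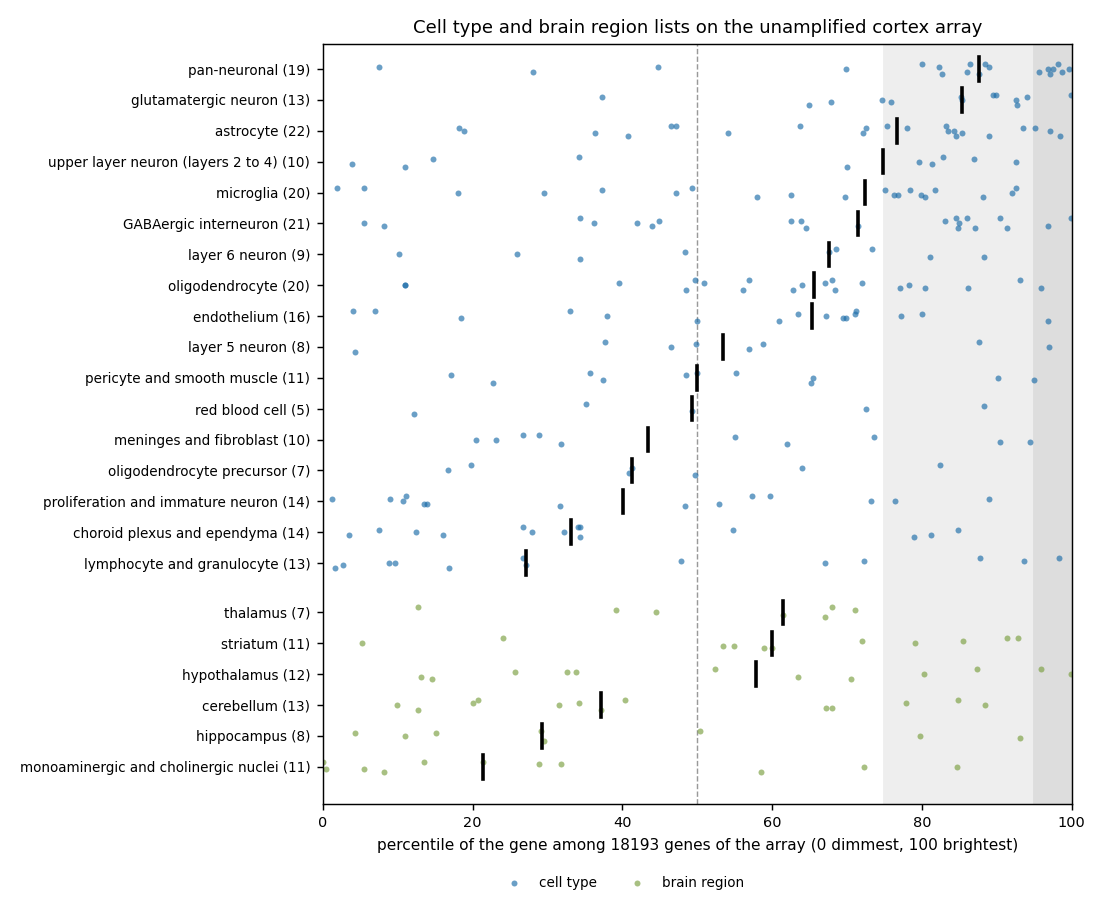
Each point is a gene of a cell type (blue) or brain region (green) list, placed by its percentile on the single unamplified cortex array; black bars are list medians, numbers in parentheses are genes measured, light and dark shading mark the top 25% and the top 5%, and the dashed line is the median of all genes. The medians run from 87.7 for pan-neuronal genes to 21.4 for monoaminergic and cholinergic nuclei, and every list spreads over a wide range.

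Markers of other brain regions were ranked as well, but they could not check the tissue label. The striatal (60.01), thalamic (61.5) and hypothalamic (57.9) medians were above that of the cortical layer 5 list (53.4). The defining genes of monoaminergic and cholinergic nuclei, whose cell bodies lie outside the cortex, had a median of 21.4, with 8 of 11 below the median of the array. Tph2 (0.041), the enzyme of neuronal serotonin synthesis, and En1 (0.401) were almost the dimmest genes of the array, and the transporters Slc6a4 (5.55) and Slc18a2 (8.11) were below percentile 10, although Ddc (84.7) and Slc6a3 (72.3), the dopamine transporter, were above the median. The hippocampal list had a median of 29.3, led by Lct (93.2) and Wfs1 (79.7) with Fibcd1 (10.99) and Tdo2 (4.31) lowest, and the cerebellar list one of 37.1, led by Zic2 (88.5) and Pvalb (84.8), which cortical interneurons also express, with Pcp2 (12.7) and Car8 (9.92) lowest. These 3 low medians depended on the dim probe sets: without those below the lower quartile of the array they were 52.2 for the monoaminergic and cholinergic, 51.9 for the hippocampal and 58.8 for the cerebellar list, and the cerebellar median was also 54.9 with the highest probe set of each gene.

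The striatal, thalamic and hypothalamic lists were nearer the middle. The striatal list had a median of 60.01, and Drd1 (92.8) and Tac1 (91.4), both present in cortical neurons too, led it while Pdyn (24.02) and Gpr6 (5.19) were lowest. The thalamic list had one of 61.5, with Lef1 (71.1) and Rora (68.03) highest, Tcf7l2 (39.1) and Gbx2 (12.7) lowest, and no gene in the top 25%. The hypothalamic list had one of 57.9. In it Oxt (99.98) and Avp (95.9), the precursors of oxytocin and vasopressin, were in the top 5%, each with 1 probe set, and the peptide precursors Pomc (14.5) and Pmch (13.1) were the lowest.

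Synaptic genes were unevenly high. The proteins of vesicle fusion had a median of 90.1, above that of every cell type, with 10 of 26 in the top 5% and 19 in the top 25%. Snap25 (98.2) and the vesicle glycoprotein Sv2a (97.7) were highest, and Vamp2 (95.6), the vesicle SNARE, Cplx2 (96.97), a complexin, and the active zone proteins Rims1 (94.1) and Bsn (91.1) were all above percentile 90. Syn2 (95.1) had 6 probe sets at 5.08, 6.72, 9.08, 9.23, 9.47 and 11.38 log2. Within families the paralogs were far apart: Sv2a and Sv2b (95.6) were bright and Sv2c (9.92) was the lowest of the list, and Unc13a (79.6), the main priming factor, ranked above Unc13b (26.3) and Unc13c (19.4).

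The synaptotagmins, read as a whole family, had a median of 42.9. Syt1 (97.1), Syt11 (96.5), Syt13 (95.2) and Syt4 (88.2) were in the top 25%, and the other 12 ranked below, down to Syt6 (10.2) and Syt16 (1.84). The proteins of clathrin endocytosis had a median of 83.2 and 1 gene below the median. The endophilins Sh3gl3 (96.4) and Sh3gl2 (94.2) were the highest, the neuronal dynamin Dnm1 (92.8) ranked above Dnm2 (74.6) and Dnm3 (63.7), and the endophilin Sh3gl1 (59.4) and the adaptor Ap2a2 (49.7) were the lowest.

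On the postsynaptic side, the scaffold list had a median of 75.02, led by Camk2n1 (96.1), an inhibitor of calmodulin kinase II, and Dlg3 (94.8). The probe sets of Camk2n1 were far apart, at 6.27 and 12.87 log2. Dlg4 (84.7), the scaffold PSD-95, was in the top 25% with Homer1 (88.7), and Shank1 (22.7) and Dlgap2 (21.9) were the lowest. The adhesion molecules had a median of 78.2, with Cadm3 (97.5) and Cadm1 (95.7) highest and Lrrtm1 (35.6) and Cntnap1 (34.7) lowest. Among the neuroligins, Nlgn3 (94.6) and Nlgn2 (81.5) ranked above Nlgn1 (39.9).

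All receptor families with more than 1 measured gene had medians below that of the release machinery, and members of a family lay far apart. The 4 AMPA receptor subunits had a median of 73.9 in the order Gria2 (94.6), Gria3 (87.5), Gria1 (60.3) and Gria4 (57.5). The kainate and delta receptors had one of 72.2, with Grik5 (97.1) and Grid1 (88.6) highest and Grik4 (37.2) and Grik1 (19.99) lowest, and the NMDA receptors one of 54.4, with Grin2d (94.04) and Grin3b (86.4) highest and Grin2c (30.04) and Grin2a (11.8) lowest. Grin2b (77.03) had 4 probe sets at 4.26, 5.53, 8.12 and 10.00 log2 and Grin2a had 1 at 4.15. Of the 7 NMDA receptor genes listed 6 were measured. The one without a value was Grin1, so the median does not place the receptor as a whole. The metabotropic glutamate receptors had a median of 81.4, with Grm8 (98.5) and Grm3 (93.7) highest and Grm2 (70.3) and Grm7 (40.7) lowest.

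The GABA-A receptor family had a median of 48.7, within 2 points of the middle of the array, and its members fell on both sides. Gabrb2 (97.8), a subunit of the most common receptor type, was in the top 5% with probe sets at 5.14, 10.00, 10.51, 10.57 and 11.15 log2, and Gabra2 (84.3) and Gabra4 (78.1) were in the top 25%. Gabrd (25.9), the extrasynaptic delta subunit, and Gabrr2 (8.81), known from the retina, were the lowest. The measured GABA-B subunit, Gabbr1 (92.7), was bright. Of the glycine receptors, Glrb (92.6), the subunit that binds gephyrin and is broadly made in brain, was the only one in the top 25%, and Glra1 (14.1), Glra2 (12.7) and Glra3 (6.29) were below percentile 15. The median of these 5 genes, 14.1, was 42.3 with the highest probe set of each gene and 49.95 without the dim probe sets, which left 3 genes.

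Among the receptors for modulators, the opioid and cannabinoid receptors had a median of 70.2, with Cnr1 (86.95), the cannabinoid receptor of neurons, and Oprm1 (78.1) highest and Oprl1 (55.3) and Cnr2 (4.31), the receptor of immune cells, lowest. The serotonin receptors had one of 49.3, with Htr7 (95.5) and Htr3a (90.4) highest and Htr2b (6.80) and Htr6 (3.67) lowest. Their median was 49.8 with the mean probe set of each gene and 57.4 with the highest. It was 67.1 without the dim probe sets, which left 10 genes. The 4 dopamine receptors ran from Drd1 (92.8) over Drd2 (71.9) and Drd3 (51.7) to Drd4 (27.7). The nicotinic receptors had a median of 47.4, and its highest member was Chrna1 (99.61), the alpha subunit of muscle, above Chrna3 (93.3), while Chrna7 (76.5) and Chrna4 (71.6), the subunits best known in cortex, lay in the upper part and Chrna6 (33.2) and Chrna5 (13.7) were lowest. Of the 3 muscarinic receptors measured, Chrm1 (70.9) was the highest and Chrm4 (10.99) the lowest. Of the neurotrophin genes, Ntrk2 (84.9), the receptor TrkB, and Sort1 (76.4) were highest, Bdnf (45.9) was near the middle, and Ntf5 (20.5) and Ngfr (19.4) were lowest.

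Of the voltage-gated sodium channels, Scn2a (98.3) stood out with probe sets at 7.75, 10.82, 10.86 and 11.53 log2, and the beta subunits Scn3b (94.02), Scn4b (86.1) and Scn2b (83.4) were also in the top 25%. Scn1a (66.9) and Scn8a (64.8) were above the median, and Scn10a (33.4) and Scn11a (46.2), channels of sensory neurons, were below it, as were Scn3a (22.5) and Scn7a (16.7), the lowest. The calcium channels had a median of 64.6, with Cacng7 (98.2) and Cacna1d (92.5) highest. Cacna1a (28.9), which carries the P/Q current, and Cacnb2 (28.2) were the lowest.

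The 81 genes of the potassium channels and their partners had a median of 52.4 and covered the whole scale, from Kcnn2 (99.4) and Kcnk15 (98.6) to Kcnu1 (1.39) and Kcnh5 (0.511). Kcnc2 (97.4) and Kcnc1 (86.7), the fast channels of interneurons, and Kcnq3 (92.7), of the M current, were in the top 25%. The glial channel Kcnj10 (36.4) was below the median. The TRP channels had a median of 44.2, with Trpa1 (94.1) and Trpm6 (93.3) highest and Trpc6 (5.87) and Trpm8 (3.29) lowest, and neither measured pacemaker channel, Hcn3 (80.3) and Hcn2 (62.2), was below the median.

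**Figure D2:**
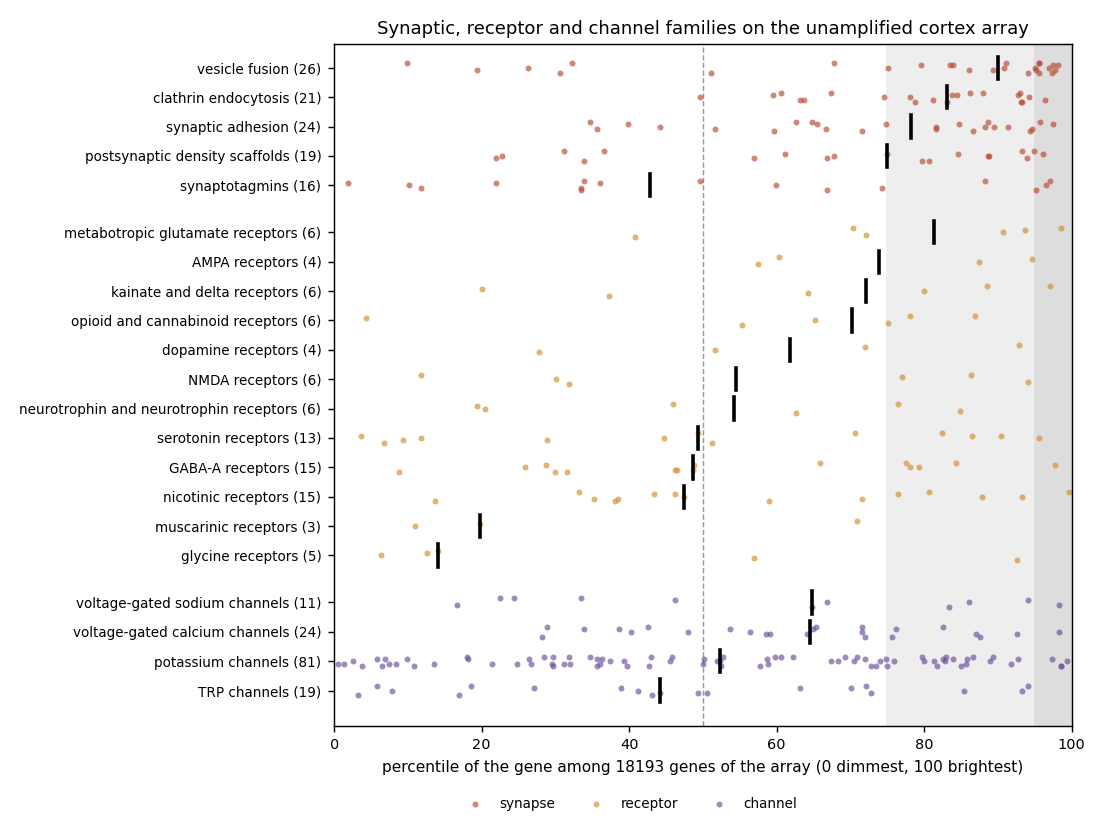
Each point is a gene of a synaptic (red), receptor (orange) or channel (purple) list with at least 3 genes measured, placed by its percentile on the single unamplified cortex array, with black bars for list medians, shading for the top 25% and the top 5%, and a dashed line at the median of all genes. The vesicle fusion list has the rightmost bar at 90.1 and the glycine receptors the leftmost at 14.1 (42.3 with the highest probe set of each gene), and the potassium channels extend from 0.511 to 99.4.

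Of all lists, the 14-3-3 proteins, adaptors that bind phosphorylated partners and are abundant in brain, had the highest median, 97.5, and, among those with more than 1 gene, the narrowest range. Their genes were Ywhaz (98.98), Ywhah (98.6), Ywhae (97.8), Ywhab (97.3), Ywhag (95.5) and Ywhaq (93.8), so that 5 of 6 were in the top 5% and all 6 in the top 25%. Ywhaz had 7 probe sets at 7.27, 8.58, 10.87, 11.41, 11.94, 12.01 and 12.91 log2 and Ywhaq 8 at 6.98, 7.96, 8.14, 8.60, 8.85, 9.07, 9.28 and 10.83. Even the dimmest of these probe sets was above the median of the array, 5.64 log2.

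Calcium signalling genes were high. The calcium-binding sensors had a median of 84.8, led by Calb2 and Nrgn, with S100a1 (96.9), Hpcal4 (92.8) and Hpca (89.9) in the top 25% and Ncs1 (30.04) and Rcvrn (20.9), the recoverin of photoreceptors, lowest. The phosphatases had a median of 74.8. In them Ppp3ca (99.3), the catalytic subunit of calcineurin in brain, had probe sets at 10.92, 11.65 and 11.81 log2 and Ppp1cb (97.5) followed, whereas Ppp3cc (6.31) and Ppp3r2 (1.26), known from testis, were lowest. The calmodulin kinase list had a median of 71.02. It was led by Camk2n1, an inhibitor rather than a kinase, and Camkk2 (94.02), with Camk2d (30.5) and Camk1 (29.7) lowest.

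Other kinase and G protein families were moderately high. The MAP kinases had a median of 75.8, led by Mapk15 (99.81) and Map2k6 (98.8) with Map2k1 (96.5) in the top 5%, and Mapk4 (32.2) and Mapk12 (24.1) lowest. Protein kinases A and C had one of 73.3, with Prkci (93.1) and Prkacb (92.8) highest and Prkcd (44.5) and Prkar2b (44.3) lowest. The heterotrimeric G proteins had one of 63.7. Gng11 (99.74) and Gng4 (98.4) led them, Gnao1 (94.3), the most abundant G protein of brain, and Gng3 (93.5) and Gng2 (93.5) were in the top 25%, and Gna14 (19.7) and Gngt2 (13.9), of cone photoreceptors, were lowest. The RGS proteins, which shorten G protein signals, had a median of 64.2, led by Rgs17 (97.9) and Rgs5, with the cortical Rgs4 (89.2) in the top 25% and Rgs18 (4.16) and Rgs13 (1.84), of blood cells, lowest. Adenylyl cyclases had one of 62.5, from Adcy4 (91.2) and Adcy5 (90.7) down to Adcy10 (4.07) and Adcy8 (1.26).

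The 59 RAB GTPases, which direct membrane traffic, had a median of 59.6, with 5 in the top 5% and 21 in the top 25%. Rab19 (99.60) and Rab33b (99.48) were highest, each with 1 probe set, and Rab3a (97.1), the isoform of synaptic vesicles, ranked above Rab3c (55.3), Rab3d (55.1) and Rab3b (52.5). Rab27a (11.2) and Rab20 (5.55) were lowest. Immediate early genes, which neurons switch on with activity, had a median of 64.9: Egr1 (96.3) and Egr3 (91.9) were highest, Fos (75.3) and Arc (63.2) were above the median, and Egr2 (9.02) and Npas4 (4.89) were lowest.

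Neuropeptide precursors and granule proteins divided, with 12 of 30 in the top 25% and 13 below the median. The granule proteins Scg3 (95.3), Scg2 (93.1) and Chgb (92.5) and the processing enzyme Cpe (88.3) were bright, as were Tac1 and Penk (85.4). Oxt and Avp headed the list, and Pmch and Nts (10.3) were its lowest members. Secreted signals were low or near the median. The Wnt ligands had a median of 59.9, with Wnt16 (99.75) and Wnt7b (90.1) highest and Wnt8a (9.92) and Wnt3 (0.844) lowest. The FGF family had one of 55.8, in which the intracellular members Fgf13 (98.5), Fgf12 (87.8) and Fgf14 (78.6), which regulate sodium channels, stood high with Fgf21 (98.3), and Fgf8 (8.41) and Fgf17 (6.63) were lowest. The BMP and GDF ligands had one of 44.3, with Gdf9 (90.3) and Bmp8a (82.7) highest and Bmp10 (9.92) and Bmp7 (8.41) lowest. The chemokines had one of 49.3, with Ccl20 (97.4) and Ccl1 (96.9) highest and Ccl12 (1.84) and Cxcl3 (0.209) lowest. The interleukins were lowest at 29.8, with Il1b (96.3) and Il17a (89.7) highest and Il3 (2.86) and Il6 (2.06) lowest.

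Genes of energy metabolism were high, with medians from 73.2 for the tricarboxylic acid cycle to 87.6 for ATP synthase. ATP synthase had a median of 87.6, with 10 of 17 genes in the top 25%. Of the 3 genes that encode its identical c subunit, Atp5g3 (98.2) and Atp5g2 (96.7) were the brightest of the list and Atp5g1 (14.5) the dimmest, next to Atp5e (21.4). Respiratory complexes III and IV had a median of 82.4, led by Uqcrh and Cox4i2 (98.2), with the common form Cox4i1 (96.6) also in the top 5%, and the muscle form Cox8b (17.1) and Cox7c (5.40) lowest. Complex I had one of 76.5, with Ndufb3 (97.5) and Ndufv3 (93.8) highest and Ndufab1 (28.5) and Ndufb1 (25.6) lowest. ND5, a complex I gene of the mitochondrial genome and the only gene of that genome that was ranked, lay at 11.79 log2 and percentile 99.4. Enzymes of the tricarboxylic acid cycle had a median of 73.2, led by Mdh1 (98.2) and Sdhd (94.8) with Suclg2 (12.4) and Pdha2 (3.08), the testis form of pyruvate dehydrogenase, lowest.

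In glycolysis, with a median of 82.3, most isoforms of other tissues ranked far below those of brain. Eno2 (99.66), Pgam1 (99.3), Ldhb (96.03), Aldoa (95.4), Ldha (94.3), Pgk1 (89.8), Pkm (88.9) and Aldoc (84.3) were in the top 25%, while the muscle forms Eno3 (2.31) and Pgam2 (10.7) and the testis forms Ldhc (4.70) and Pgk2 (4.89) were the 4 lowest. Pklr (84.3), the pyruvate kinase of liver and red cells, was an exception at about the level of Aldoc. In the creatine list Ckb (89.4), of brain, and Gatm (92.1), which makes the creatine precursor, were the highest and Gamt (20.1) and the muscle form Ckmt2 (6.47) the lowest. Among the ion pumps, Atp1b1 (98.2), a subunit of the sodium pump with probe sets at 7.27, 10.56, 10.77, 11.36 and 11.61 log2, and Atp2b2 (98.1), a calcium pump of the neuronal membrane, were highest and Atp2b3 (26.9) and Atp2c2 (2.86) lowest. The V-ATPase, which acidifies vesicles, had a median of 76.2, led by Atp6ap2 (97.6) and Atp6v1d (95.9) with Atp6v1h (17.6) and Atp6v1e2 (10.99) lowest. In the glutamate and glutamine cycle, with a median of 74.9, Slc1a2 and Glul led and Slc1a1 (37.2) and Slc17a6 closed.

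Pathways of liver and fat metabolism were lower. Gluconeogenesis and glycogen had a median of 20.8, with no gene in the top 25%: Pygb (74.7), the brain glycogen phosphorylase, was the highest, above G6pc (68.5), and Pck2 (3.99) and Pck1 (1.84) were the lowest, and without the dim probe sets the median was 55.6 over the 7 genes left. Fatty acid oxidation and ketone use had one of 46.2, and Oxct1 (88.7), with which brain uses ketone bodies, was the only gene of it in the top 25%, above Hadh (72.6), with Cpt1a (5.19) and Cpt2 (3.98) lowest. Cholesterol synthesis had one of 42.3 and a wide spread, from Hmgcs1 (96.2) and Sqle (94.6) to Cyp51 (5.87) and Msmo1 (3.76). The side of the array's middle on which this list lay depended on the setting. Its median was 58.7 with the highest probe set of each gene and 50.8 with the mean probe set. It was 53.8 without probe sets ending in _x_at or _s_at, 49.9 without the dim probe sets and 44.7 among all probe sets. Liver amino acid enzymes had one of 39.7, with Tat (94.6) and Cps1 (92.4) high and Hal (7.12) and Otc (5.87) lowest. The 72 cytochrome P450 genes had one of 36.9, with Cyp2b10 (99.3) and Cyp4f13 (91.5) highest and Cyp39a1 (1.68) and Cyp2d34 (0.932) lowest, and Cyp46a1 (64.04), the cholesterol hydroxylase of neurons, was above the median. The antioxidant enzymes were in the middle at 51.99, with Gpx5 (99.53), of the epididymis, above Sod2 (89.2), and Gpx7 (19.7) and Prdx4 (15.3) lowest.

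Among the structural and housekeeping families, neurofilaments and microtubule-associated proteins were highest with a median of 86.5. Basp1 (99.02), a membrane protein of axon ends, and the stathmins Stmn3 (97.7), Stmn4 (97.4) and Stmn1 (95.2) were in the top 5%, and Ina (35.6) and Gap43 were lowest. The tubulins had a median of 58.7, with Tuba1a (97.97) and Tubb4a (94.6) at the top and Tubg2 (19.2) and Tubb3 at the bottom, and the 6 probe sets of Tubb4b lay at 3.58, 5.26, 5.44, 5.64, 6.75 and 8.36 log2. The kinesins had one of 52.3, in which the axonal motors Kif1b (92.7) and Kif1a (88.9) were high together with Kif4 (97.2), a motor of mitosis, and the mitotic Kif18a (0.893) and Kif20b (0.717) were lowest.

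The cytosolic ribosomal proteins, among the most abundant mRNAs of most cells, had a median of 68.5, and 0 of the 46 ranked were in the top 5%. Genes of the family whose probe sets carry several symbols or none were not ranked, so the count covers these 46 alone. Rps29 (93.1) and Rps14 (92.1) were the highest, and Rpl14 (2.31) and Rps16 (0.761), each with 1 probe set, were among the dimmest genes of the array. A ribosome holds these proteins in equal numbers, and their percentiles nonetheless ran from 0.761 to 93.1. Many of these genes have near-identical processed copies in the genome, and without probe sets of shared sequence the median of the 41 that were left was 52.2. The mitochondrial ribosomal proteins had a lower median, 42.5, from Mrps27 (98.9) and Mrpl57 (98.1) to Mrpl16 (11.8) and Mrpl13 (2.19). Translation factors had one of 59.01, with Eif4a2 (97.1) and Eef1a1 (96.6) highest and Eif2a (3.49) and the Y-linked Eif2s3y (0.640) lowest.

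Protein quality control was near the upper middle. The ubiquitin-conjugating enzymes had a median of 70.2, led by Ube2n (96.7) and Ube2d3 (93.6) with Ube2t (7.57) and Ube2d2b (1.15) lowest. The chaperones had one of 60.1, with Cct6a (98.8) and Hspb1 (96.4) highest, Hsp90aa1 (95.7) in the top 5%, Hspb9 (4.31) and Hspa1l (2.68), of testis, lowest, and the 7 probe sets of Cct4 (9.58) at 3.51, 3.53, 3.64, 3.97, 5.03, 5.80 and 6.50 log2. The proteasome had one of 58.5, with Psmd3 (97.97) and Psmd5 (93.7) highest and Psmd10 (4.55) and Psma8 (2.06), the testis subunit, lowest. Replication-dependent histones, whose mRNAs lack a polyA tail, had a median of 26.99 over 7 genes, with H2bc18 (72.9) and H2ac19 (55.7) highest, H3c7 (23.6) and H2bc22 (5.55) lowest, and no gene in the top 25%.

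**Figure D3:**
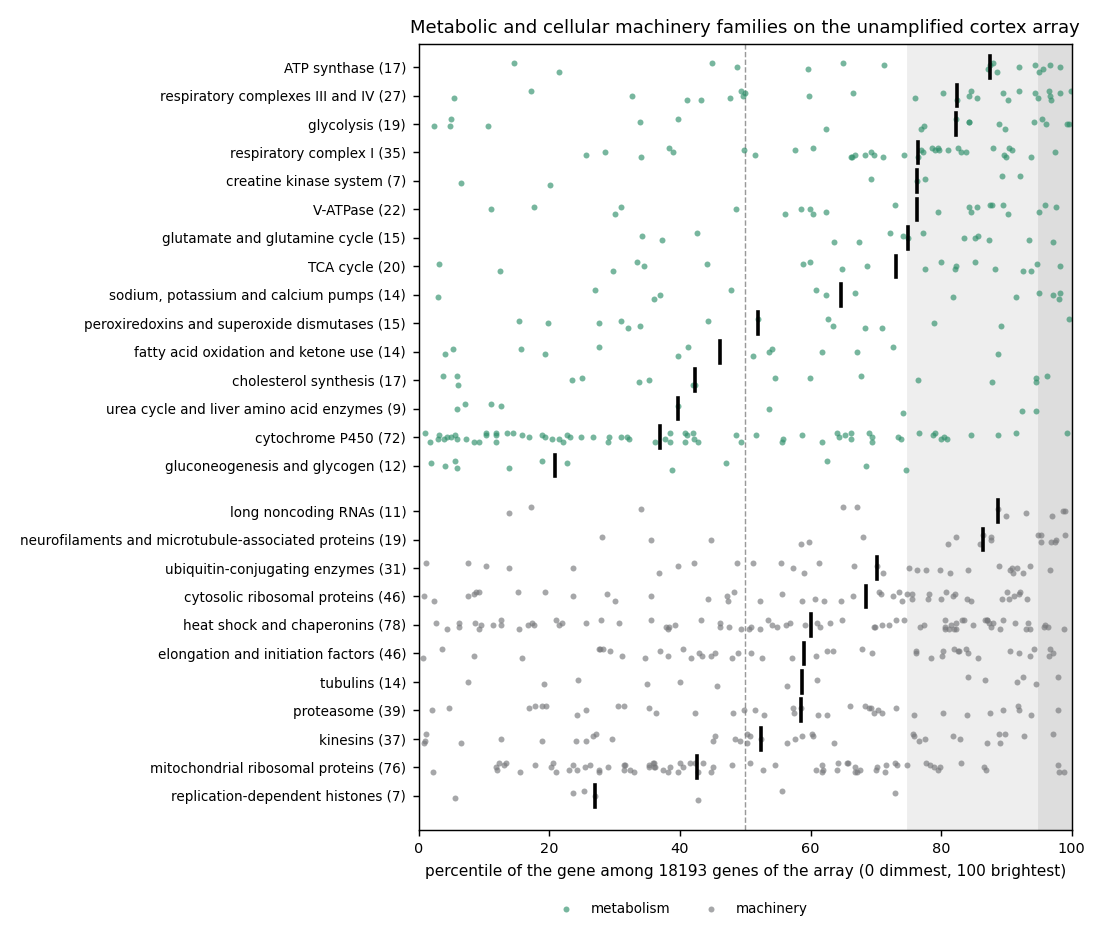
Each point is a gene of a metabolic (green) or machinery (grey) list with at least 3 genes measured, placed by its percentile on the single unamplified cortex array, with black bars for list medians, shading for the top 25% and the top 5%, and a dashed line at the median of all genes. ATP synthase has the highest metabolic median at 87.6 and gluconeogenesis the lowest at 20.8, and the ribosomal proteins extend over nearly the whole axis.

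Several long noncoding RNAs were bright. The 11 listed had a median of 88.8, and Malat1 (98.97) and Rian (98.7) were highest and Snhg11 (97.01), Meg3 (93.02), Miat (89.9) and Neat1 (88.8) were in the top 25%, while Airn (17.1) and Snhg1 (13.9) were lowest. Malat1 had 7 probe sets at 5.73, 8.74, 9.82, 11.41, 11.45, 11.45 and 11.88 log2 and Meg3 11 at 6.27, 7.23, 7.97, 8.02, 8.07, 8.54, 10.06, 10.25, 11.04, 11.65 and 12.35. Xist (64.98), transcribed from the inactive X chromosome in females, was above the median. Genes of the Y chromosome, which have no template in a female, reached 61.3, so this level of Xist does not by itself show its transcript. The 1355 genes that RefSeq classes as long noncoding had a median percentile of 40.1, against 51.0 for the 16468 protein-coding ones, while 6.49% of the former and 4.86% of the latter were in the top 5%.

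**Figure D4:**
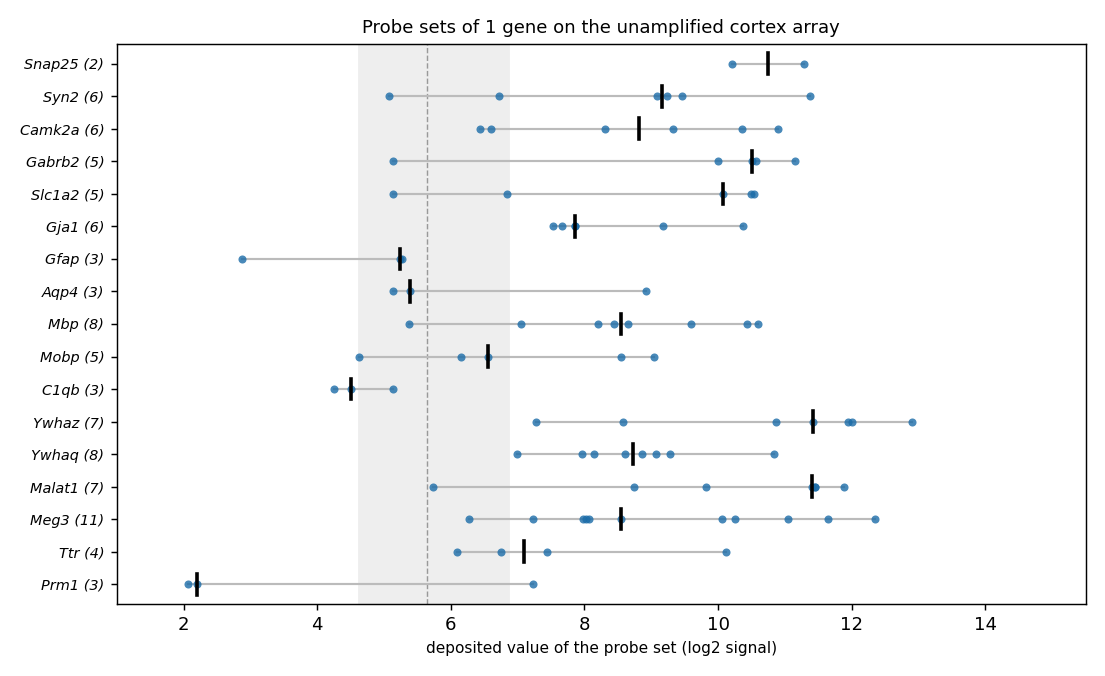
Each point is a probe set of the gene named at the left, placed by its deposited log2 signal on the single unamplified cortex array; black bars are the medians used for ranking, numbers in parentheses are probe sets, the shading spans the middle 50% of all probe sets and the dashed line is their median. The 2 probe sets of Snap25 lie close together, whereas those of Mbp range from 5.37 to 10.60 and those of Syn2 from 5.08 to 11.38.

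For 10 genes the probe sets disagreed most, by 10.79 to 12.16 log2, and their percentiles rest on the choice of the median. They were Ptprk (72.8), Cep112 (74.6), Rassf1 (91.9), Pik3cd (55.1), AI854703 (95.3), Deptor (56.98), Ddhd2 (79.8), 4930519G04Rik (61.5), Trmt2a (47.6) and Pfpl (44.99). Ptprk, a receptor tyrosine phosphatase, had 7 probe sets at 2.75, 4.37, 5.27, 6.59, 7.32, 7.84 and 14.91 log2, and Deptor, an inhibitor of mTOR that was also on the layer 5 list, had 6 at 2.66, 4.39, 5.56, 6.31, 8.32 and 13.56. In both, a single probe set was above 13 log2.

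The lists for sperm, liver, muscle, photoreceptors and lens were low, with medians from 14.9 to 31.7. The sperm list had a median of 14.9, the lowest of those with more than 5 genes, with 17 of 18 genes below the median, Odf1 (60.2) and Spata18 (49.97) highest and Sycp3 (2.86) and Prm1 (0.247), protamine, lowest. Liver secreted proteins had one of 18.98, and Ttr (81.2), which the choroid plexus also makes, was the only one of 16 in the top 25%. Fgl1 (49.3) came next, albumin (Alb) lay at 20.1, and the fibrinogen chains Fga (1.68) and Fgg (0.588) were lowest. Muscle genes had one of 23.7, with Ckm (77.6) and Myl3 (73.9) highest and Myh6 (3.75) and Tnni3 (2.52) lowest. Photoreceptor genes had one of 30.5, with Opn1mw (68.9) and Sag (64.04) highest and Prph2 (6.47) and Guca1a (3.67) lowest, and lens crystallins one of 31.7, with Crygb (98.6) and Crygd (79.4) highest and Cryba1 (13.1) and Crygn (11.4) lowest.

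Families of chemoreceptors and epithelial genes were less uniform. The 31 vomeronasal receptors were low, with a median of 16.3, although Vmn2r1 (92.6) and Vmn1r49 (91.1) were above percentile 90 and Vmn1r43 (0.247) and Vmn1r11 (0.066) were near 0. The 38 olfactory receptors ran from Olfr15 (99.51) and Olfr64 (95.1) to Olfr315 (4.31) and Olfr155 (3.08), with 18 below the median. The 86 keratins and keratin-associated proteins ran from Krt5 (99.78) and Krt23 (99.1) to Krtap9-3 (0.401) and Krtap19-2 (0.291), and the 33 Hox genes from Hoxc6 (99.01) and Hoxb2 (95.9) to Hoxa13 (4.31) and Hoxd11 (0.588). Their medians were 50.3, 53.1 and 51.2, and 6 keratin genes were in the top 5%, a share of 6.98%. Adult cortex is not known to use most genes of these families. What their bright probe sets bound was not tested.

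Smaller sets also held members near both ends. The taste receptors ran from Tas1r2 (96.4) and Tas1r3 (86.2) to Tas2r119 (18.001) and Tas2r105 (5.55) with a median of 38.9. The pancreatic genes ran from Cela2a (97.4) and Ins2 (89.1) to Cpb1 (9.92) and Cel (4.89) with one of 33.1. The defensins ran from Defb42 (96.1) and Defa39 (88.2) to Defb7 (0.588) and Defb9 (0.511) with one of 28.1. The 8 genes of the Y chromosome have no template in a female, so that their levels were measured without their own transcript. Their median was 25.4, none was in the top 25%, and 5 were below the median, yet Zfy2 (61.3), Sry (61.2) and Kdm5d (53.7) were above it, while Usp9y (24.02), Uty (7.90) and Eif2s3y (0.640) were low.

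**Figure D5:**
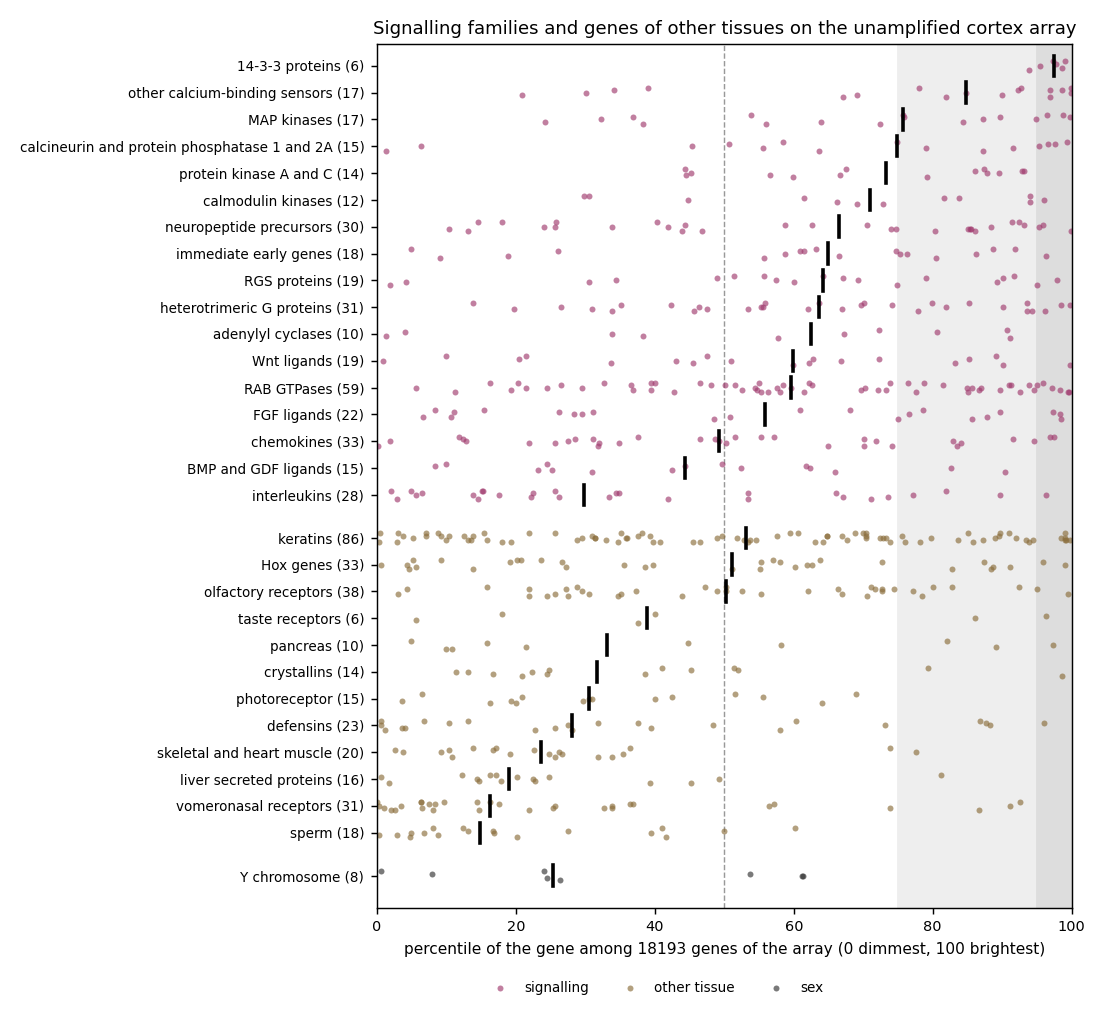
Each point is a gene of a signalling list (magenta), of a list for another tissue (brown) or of the Y chromosome (dark grey), placed by its percentile on the single unamplified cortex array, with black bars for list medians, shading for the top 25% and the top 5%, and a dashed line at the median of all genes. The 6 points of the 14-3-3 proteins lie between 93.8 and 99.0, the sperm list has the lowest bar at 14.9, and no Y chromosome gene passes 61.3.

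The CpG content of promoters rose with the percentile over most of the scale. RefSeq promoters (GRCm38.p6, from 250 bases before to 50 after the start) were at hand for 14368 of the 18193 genes, and a promoter was called CpG-rich at a GC content of at least 50% and an observed to expected CpG ratio of at least 0.6. The genes were divided by percentile into 10 bins of about equal size, from bin 1, the dimmest, to bin 10. The CpG-rich share was 31.4% in bin 1, 44.1% in bin 2, 53.8% in bin 4, 57.2% in bin 6 and 62.0% in bin 9. It was lower again at the top, with 58.4% in bin 10 and 53.3% in the top 5%, against 53.3% over all genes. The share with GGGCGG, the core of the motif of the factor Sp1, on either strand was 41.1% in bin 1, 65.2% in bin 9 and 57.5% over all genes. TATAAA on either strand was in 15.4% of the promoters of bin 1 and 11.5% of all.

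Shares within the lists cover only genes with a promoter at hand. These were 4 of the 6 14-3-3 genes, and all 4 had a CpG-rich one. For neurofilaments and microtubule-associated proteins they were 8 of 19 genes, with a share of 87.5%. The share was 86.7% over 15 genes of ATP synthase and 75% over 40 of cytosolic ribosomal proteins. No promoter of the liver, muscle, olfactory or vomeronasal lists was CpG-rich. High level and CpG content did not always go together. Promoters were CpG-rich in 11.1% of 18 astrocyte and 6.67% of 15 microglial genes, although both lists had medians above 70. The 250 bases before the start of 4 genes are shown because they span the range, with the letters of each CpG in capitals. They were chosen after the values were seen.
Ywhah, chr5:33018566-33018815, plus strand: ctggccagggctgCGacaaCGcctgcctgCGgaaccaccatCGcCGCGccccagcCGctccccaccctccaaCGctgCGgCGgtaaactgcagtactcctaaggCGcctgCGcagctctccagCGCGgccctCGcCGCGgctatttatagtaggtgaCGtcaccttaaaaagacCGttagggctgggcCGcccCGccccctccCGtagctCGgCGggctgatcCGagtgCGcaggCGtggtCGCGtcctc
Nrgn, chr9:37552746-37552995, minus strand: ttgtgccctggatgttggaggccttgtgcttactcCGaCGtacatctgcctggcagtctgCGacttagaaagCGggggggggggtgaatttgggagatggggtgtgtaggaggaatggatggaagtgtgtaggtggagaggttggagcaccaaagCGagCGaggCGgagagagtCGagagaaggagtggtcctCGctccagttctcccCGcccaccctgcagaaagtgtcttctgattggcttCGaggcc
Stmn3, chr2:181314501-181314750, minus strand: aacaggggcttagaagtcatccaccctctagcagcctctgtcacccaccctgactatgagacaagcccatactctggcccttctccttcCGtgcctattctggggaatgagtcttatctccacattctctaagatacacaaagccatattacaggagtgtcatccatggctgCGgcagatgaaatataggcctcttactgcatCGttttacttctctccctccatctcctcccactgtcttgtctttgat
Prm1, chr16:10796824-10797073, minus strand: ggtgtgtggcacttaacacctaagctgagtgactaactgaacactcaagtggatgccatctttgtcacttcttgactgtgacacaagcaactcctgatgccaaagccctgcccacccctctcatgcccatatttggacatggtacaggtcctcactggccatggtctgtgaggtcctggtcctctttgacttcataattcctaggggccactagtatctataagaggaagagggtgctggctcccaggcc

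The window of Ywhah (98.6) held 29 CpG and that of Nrgn (99.87) 11. Stmn3 (97.7) had 3, although it was as bright as the 14-3-3 genes, and Prm1 (0.247) had 0. The 4 motifs named here were searched on both strands of these 250 bases. The window of Ywhah held TATAAA only on the strand opposite to the one printed, so it is not called a TATA box here. It also held GGGCGG, the Sp1 core, and TGACGTCA, the motif of the factor CREB. That of Nrgn held CCAAT, bound by the factor NF-Y, and also GGGCGG. The windows of Stmn3 and Prm1 held none of them. Over all genes with a promoter, the share with CCAAT was 42.0% and the share with the CREB motif 2.94%.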

How the data were processed

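The hybridization of 5 µg of unamplified cortex mRNA, 1 of the 17 arrays of the series, was analysed. The authors combined probes into 1 value per probe set by RMA 2.0 with the upper decile statistic, by which the brightest probes set the value, and deposited log2 signal. The median centering and scaling that the methods describe were not found in them, and neither would change a rank. Of 45101 probe sets, 64 controls were left out. Of the others, 34945 carried 1 gene symbol in the array annotation and were used, and 932 with several and 9160 without one were not. Each of the 18193 genes was given the median of its probe sets, and its percentile, with ties averaged. Depth does not apply, and the precision is limited by the single array. The 103 lists hold 1957 genes measured. Another 75 listed names had no row and were not analysed here. Members and lists were chosen with earlier results of these data known. For each list with over 5 genes the 2 highest and 2 lowest members were named, along with the 30 brightest genes and the 10 with the widest spread. No test was run. Ranking was tested on simulated data with python 3.11.15, numpy 2.4.6, pandas 2.3.3 and scipy 1.17.1. Promoters came from RefSeq. A gene with several was given their median CpG measures and held a motif if any of them did. A total of 5 alternatives were tried.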

Additional observations from a re-analysis of the deposited data

How the results depend on the processing

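Each list's median percentile was recomputed under 5 alternatives: the highest or the mean probe set of a gene, no probe sets ending in _x_at or _s_at, no probe sets below the lower quartile of the array, and percentiles among all probe sets. Of the 97 lists with at least 5 genes, 73 stayed on their side of 50 under all 5 alternatives and 24 crossed it under at least 1, among them 18 without the dim probe sets and 9 with the highest probe set. The 19 lists with a median of at least 75 did not fall below 64.8 under any alternative. The 7 lists at or below 25 reached at most 55.6, which gluconeogenesis and glycogen did without the dim probe sets. That filter leaves out probe sets by their own signal, and under it the pancreatic list moved from 33.1 to 71.6, the NMDA receptors from 54.4 to 80.6, the lymphocyte and granulocyte list from 27.1 to 54.1, the sperm list from 14.9 to 28.9, the vomeronasal receptors from 16.3 to 28.2, the histones from 27.0 to 14.5, the muscle list from 23.7 to 14.2, the precursors of oligodendrocytes from 41.3 to 27.2, the pericyte list from 49.97 to 31.8, the red blood cell list from 49.3 to 31.0 and the crystallins from 31.7 to 21.0. With the highest probe set the Y chromosome list moved from 25.4 to 41.7. Without probe sets of shared sequence the gluconeogenesis list moved from 20.8 to 35.0 and the pancreatic list to 21.4. The medians of the Hox genes, keratins and olfactory receptors were 41.04, 40.98 and 39.8 with the highest probe set. Counts of genes in the top 5% or below the median moved by over 1.5 times in 62 cases with the highest probe set, where 132 kept within it, and in 14 without probe sets of shared sequence, where 180 kept within it. No paired analysis was possible because the results come from 1 array and from no test.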

Other observations

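The 30 brightest genes of the unamplified array were also looked up on the other 16 arrays of the series, which were made from the same mRNA after amplification. All 30 were in the top 5% of genes on each of these arrays, and the lowest percentile was 96.96, of Ppm1k. These arrays read the same probe sets on the same mRNA, so they give no independent check of the ranking. What the probe sets of these genes bound was not tested.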
